A study of Mus musculus with 18 samples.

Results

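The 26 genes described here encode enzymes of cholesterol synthesis and proteins that control it through the transcription factor SREBP-2 or that move and clear sterols. They were chosen by name from the deposited expression table, which lists 18946 genes, and 26 of 26 were found and passed the filter on low values. RNA was sequenced from livers of male C57BL/6J mice, an inbred laboratory strain, in 8 Young animals aged 6.18 months and 10 Old animals aged 19.76 months per the labels (the design text gives 20 and the growth protocol 21 months for Old). The 2 groups carry no transgene or drug and differ by age. The mice had fasted overnight, and both groups then underwent a hyperinsulinemic-euglycemic clamp (an insulin infusion with enough glucose to keep blood glucose steady) right before the liver was taken; livers without insulin infusion were not part of the comparison. Each library is 1 mouse. RNA was extracted with the AllPrep kit from 3 Young and 5 Old livers and with the RNeasy kit from 5 Young and 5 Old livers, and ribosomal RNA was depleted.

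Cholesterol is built from acetyl-CoA. Enzymes of the mevalonate segment (Acat2, Hmgcs1, Mvk, Pmvk, Mvd, Idi1, Fdps) make farnesyl diphosphate, which Ggps1 extends for protein prenylation. Fdft1 joins farnesyl units into squalene, Sqle oxidises it, Lss closes the sterol rings, and the later enzymes trim and rearrange the ring system. When membrane sterol is low, SCAP escorts SREBP-2 from the endoplasmic reticulum to the Golgi, where it is cut, and its released part enters the nucleus and activates genes of the pathway. INSIG proteins hold SCAP back when sterol is plentiful. In liver, insulin and feeding are known to raise SREBP activity and to lower a transcript of Insig2.

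Promoter sequences are shown for the anchor of the pathway (Hmgcs1), for the INSIG genes, which behaved differently from each other, and for Sc5d and Mylip, the genes with the smallest p-values for age. Each is the stretch of 250 bases before a RefSeq gene start, read 5′ to 3′ on the gene's strand from build GRCm38.p6. Capitals mark TCACNCCAC (a sterol response element form), CCAAT (the NF-Y motif) and GGGCGG (the core of a GC box), searched on both strands, so that ATTGG and CCGCCC are the reverse complements. The Hmgcs1 stretch is chr13:119690101-119690350 on the plus strand, that of Insig1 is chr5:28071162-28071411 (plus), that of Sc5d is chr9:42264301-42264550 (minus), that of Mylip is chr13:45389492-45389741 (plus), and that of the most upstream of 3 Insig2 starts is chr1:121332590-121332839 (minus).
Hmgcs1: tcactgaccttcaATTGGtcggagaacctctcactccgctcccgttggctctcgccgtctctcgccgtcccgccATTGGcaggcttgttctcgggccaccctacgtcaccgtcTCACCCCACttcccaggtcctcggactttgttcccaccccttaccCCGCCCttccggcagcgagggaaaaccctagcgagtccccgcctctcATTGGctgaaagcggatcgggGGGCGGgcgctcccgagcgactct
Insig1: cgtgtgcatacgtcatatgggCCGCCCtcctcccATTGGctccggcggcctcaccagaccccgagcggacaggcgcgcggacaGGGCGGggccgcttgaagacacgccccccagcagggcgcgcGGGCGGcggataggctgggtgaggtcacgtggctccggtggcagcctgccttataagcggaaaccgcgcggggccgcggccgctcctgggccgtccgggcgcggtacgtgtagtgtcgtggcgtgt
Sc5d: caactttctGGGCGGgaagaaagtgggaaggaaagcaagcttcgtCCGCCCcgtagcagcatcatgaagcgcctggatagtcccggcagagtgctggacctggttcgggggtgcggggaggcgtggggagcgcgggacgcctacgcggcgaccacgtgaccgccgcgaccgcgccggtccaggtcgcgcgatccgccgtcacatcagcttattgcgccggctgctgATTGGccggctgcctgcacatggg
Mylip: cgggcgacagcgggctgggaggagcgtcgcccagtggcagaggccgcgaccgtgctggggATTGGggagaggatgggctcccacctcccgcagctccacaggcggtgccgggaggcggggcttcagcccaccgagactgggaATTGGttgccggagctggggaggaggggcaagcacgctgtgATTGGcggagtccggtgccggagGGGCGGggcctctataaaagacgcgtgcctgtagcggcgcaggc
Insig2: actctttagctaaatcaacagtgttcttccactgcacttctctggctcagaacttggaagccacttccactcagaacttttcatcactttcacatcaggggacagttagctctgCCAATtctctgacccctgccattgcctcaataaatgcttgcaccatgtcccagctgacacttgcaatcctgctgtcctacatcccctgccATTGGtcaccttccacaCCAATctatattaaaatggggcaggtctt

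Promoters were found for 22 of the 26 genes, with 28 starts. The motif TCACNCCAC lay in 1 of these 28, that of Hmgcs1, where it begins 137 bases before the start, against 1.05% of 32851 mouse promoters. CCAAT lay in 20 of the 28 and GGGCGG in 22 of the 28, against 33.8% and 32.7% of all promoters. The 5 stretches above hold CCAAT on either strand, and that of Insig2 is the only 1 of the 5 without GGGCGG. The other 2 Insig2 starts, not shown, each hold 1 GGGCGG and 0 CCAAT. A match is a description of letters, not a measured binding site.

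The reads recovered from the deposited values came to 85790735 to 127487820 per library. They gave from 116 reads (Mvd, lowest library) to 81379 reads (Hmgcs1, highest library) for the 26 genes, so that counting error was small beside the differences between mice. Old replicate 14 stood apart from the other mice in these genes, and results are given with and without it. Hepatocyte markers (5 of 5 detected, 0 at zero) summed to 65346 to 101014 scaled TPM in Young and 65220 to 118438 in Old, with Old replicate 14 highest. Alb, the albumin gene, made up most of that sum, and it was the 1 marker of the 5 with a positive age difference (0.27 on the log2 scale; limma adjusted p = 0.444). Tat, a tyrosine aminotransferase, differed by -0.88 (limma adjusted p = 0.0575), and by -0.61 without Old replicate 14, where it was called lower (adjusted p = 0.00263). Leaving out that mouse moved Serpina1c from -0.32 to -0.18, Hnf4a from -0.15 to -0.09 and Ttr from -0.05 to -0.04. Alb moved from 0.27 to 0.20. The high sum of Old replicate 14 therefore does not stand for the markers other than Alb. Of 4 markers of lipid-associated macrophages, 2 were higher in Old, Trem2 (a lipid receptor of these cells) and Gpnmb (a membrane glycoprotein). They differed by 1.24 and 2.47 on the log2 scale (limma adjusted p = 0.0162 and 0.0172). Their Young means were low, 0.82 and 0.57 scaled TPM. With limma-voom on recovered reads Trem2 was called (adjusted p = 0.0233) and Gpnmb was not (adjusted p = 0.0597). The other 2, Cd9 and Spp1, differed by 0.25 and -0.18 on the log2 scale (limma adjusted p = 0.681 and 0.767). Without Old replicate 14 these differences were -0.08 and -0.37. Of the tested markers of Kupffer cells (6), bile duct (3), endothelial (4), stellate (4) and lymphoid cells (4), 0 passed the test. The lipid-associated macrophage sum ran from 47.0 to 94.7 scaled TPM in Young and from 49.2 to 301.2 in Old, again highest in Old replicate 14. The bile duct marker sum ran from 6.88 to 11.1 in Young and from 8.91 to 20.5 in Old, highest in the same mouse. At their highest these sums were mostly Cd9 and Sox9. The highest Old level of Cd9 was 204.8 scaled TPM, beside 7.19 for Trem2, 21.8 for Gpnmb and 67.4 for Spp1. That of Sox9 was 19.1, with an age difference of 0.43, against -0.38 for Epcam and -0.20 for Krt19. None of the markers was at zero. The part of these cells in the results below was not tested, and in bulk tissue fewer cells of a type and less RNA per cell cannot be told apart.

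Between Young and Old livers none of the enzymes passed the test for age, and the gene of the 26 that did was Mylip, which fell. Mylip encodes a ubiquitin ligase that marks lipoprotein receptors for degradation and is a target of the oxysterol receptors LXR. With limma over 13895 genes and kit as a term, 0 of the 26 genes were called higher (2.44% of all genes tested) and 1 was called lower (2.47% of all), at an adjusted p under 0.05. The log2 difference, Old minus Young, was positive in 18 and negative in 8, with a median of 0.23 against 0.004 over all genes. At an unadjusted p under 0.05 there were 5 of the 26, against 23.4% of all genes tested. Of all genes, 339 were called higher and 343 lower; without scaling between libraries this split was 341 and 188, with a median of all genes of 0.05, and Mylip was again the gene called among the 26.

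The size of the positive differences depended on Old replicate 14, which had the highest level of 18 mice in 18 of the 26 genes and the lowest in 2, Ebp and Tm7sf2. Without it the median log2 difference was 0.05, with 18 positive and 8 negative, 1 gene called higher (Sc5d; 3.67% of all genes) and 1 called lower (Mylip; 3.35% of all genes). Within the AllPrep livers the median was 0.28 with 19 positive. Within the RNeasy livers, which include Old replicate 14, it was 0.18 with 17 positive. Within the RNeasy livers without that mouse it was -0.12, with 6 positive and 20 negative. Old replicate 16 lay at the other end, with the lowest level of all mice in 10 of the 26 genes. With Old replicate 14 left out, Old replicate 8 was the highest of 17 mice in 10 genes.

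**Figure D1:**
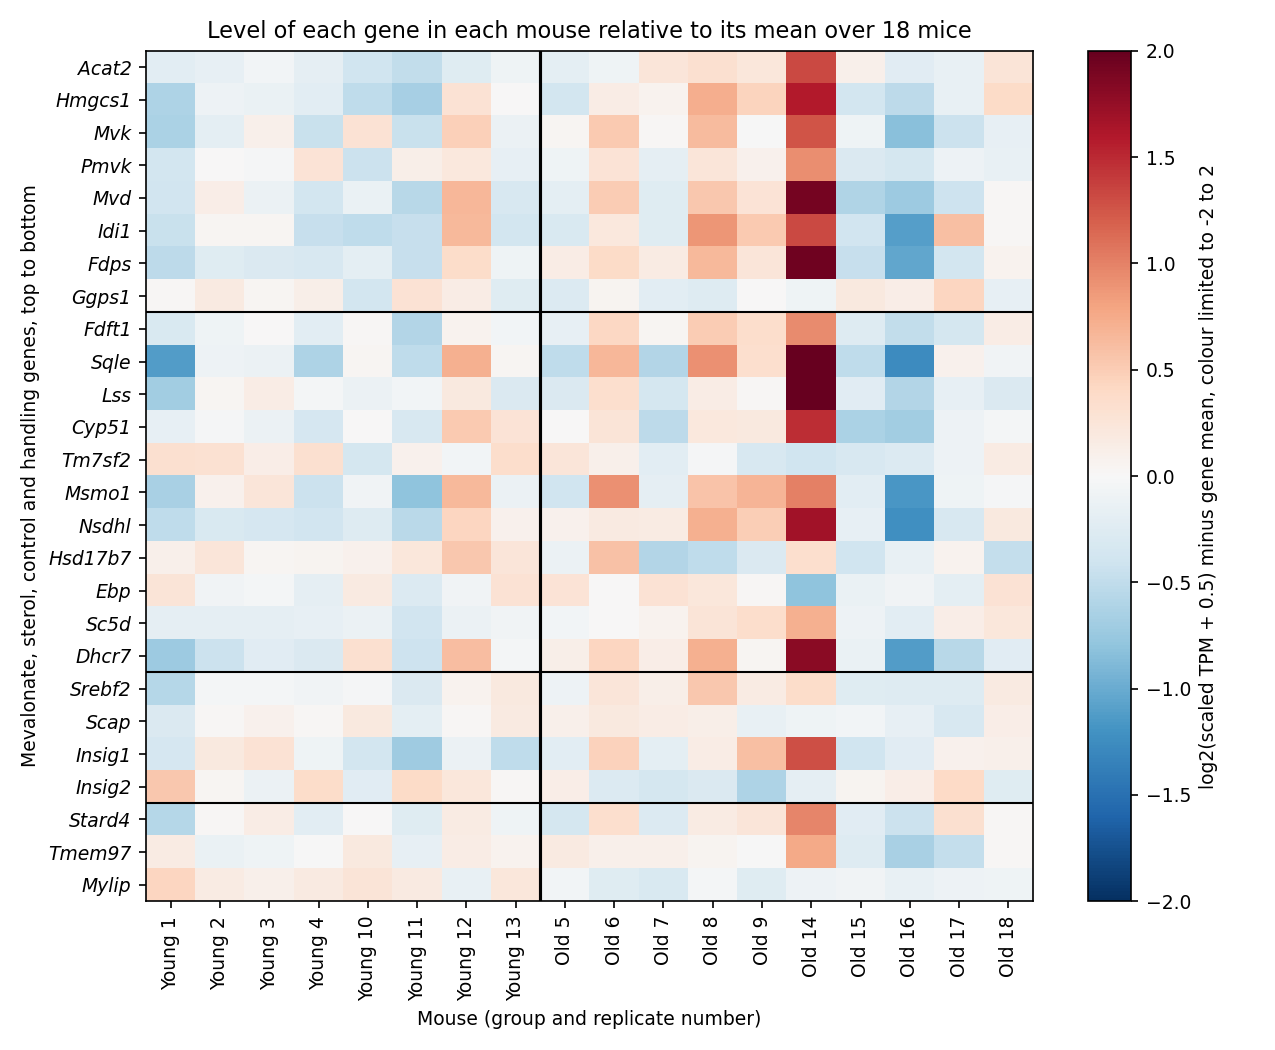
Level of each of the 26 genes in each of 18 mice as log2(scaled TPM + 0.5) minus the gene's mean, with colours limited to 2 units either way and Sqle and Lss of Old replicate 14 beyond that limit; the vertical line parts Young from Old and horizontal lines part the 4 roles. Old 14 is highest in 18 genes, and Old 16 is lowest in 10.

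**Figure D2:**
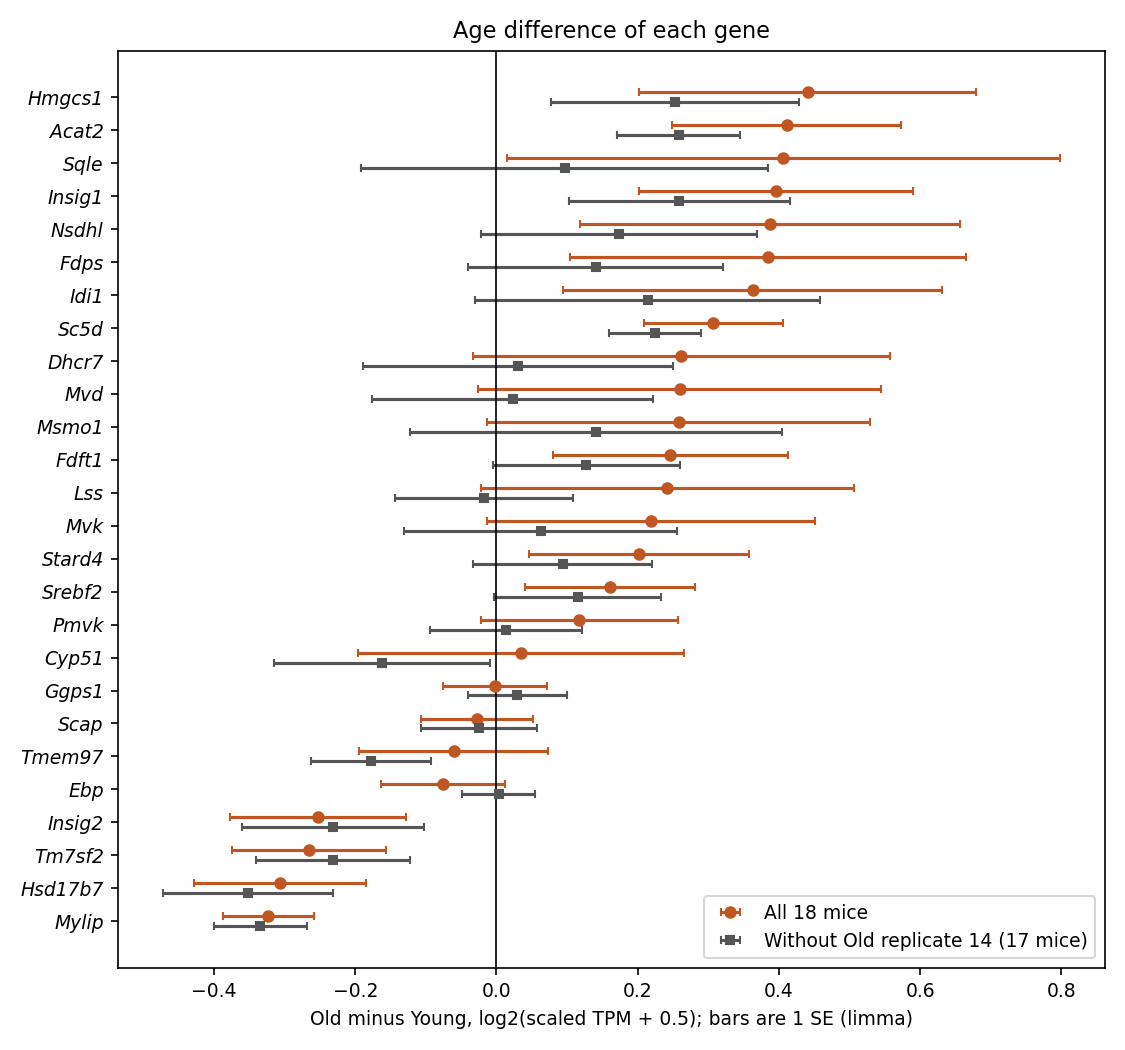
Old minus Young difference of each gene in log2(scaled TPM + 0.5), with 1 SE from limma, for all 18 mice (circles) and for 17 mice without Old replicate 14 (squares). Leaving out this mouse moved most enzymes towards 0, while Mylip stayed at -0.33.

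In the mevalonate segment 0 of 8 genes were called, 7 differences were positive and the median was 0.31 (0.10 without Old replicate 14). Hmgcs1, the synthase that makes HMG-CoA, had a lowest, median and highest level of 71.7, 101.6 and 140.5 scaled TPM in Young and 79.5, 123.4 and 345.7 in Old. Of the Old mice 4 lay above the highest Young mouse, and the 2 lowest mice were Young. The log2 difference of Hmgcs1 was 0.44 ± 0.24 (SE; limma adjusted p = 0.276), and 0.25 ± 0.18 without Old replicate 14 (adjusted p = 0.392). Acat2, the cytosolic thiolase that joins acetyl-CoA units, was at 25.8, 31.9 and 35.3 scaled TPM in Young and 31.1, 41.2 and 92.3 in Old. The level in 9 of 10 Old mice was above the Young median, and the ranges overlapped. Acat2 differed by 0.41 ± 0.16 on the log2 scale (limma adjusted p = 0.137), and 0.26 ± 0.087 without Old replicate 14 (adjusted p = 0.0788). The kinases Mvk and Pmvk, the decarboxylase Mvd, the isomerase Idi1 and the synthase Fdps had log2 differences from 0.12 (Pmvk) to 0.38 (Fdps), with limma adjusted p-values from 0.426 to 0.642. Without Old replicate 14 these 5 ran from 0.01 (Pmvk) to 0.21 (Idi1). Ggps1, at the branch to prenylation, differed by -0.002 ± 0.074.

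In the sterol segment 0 of 11 genes were called, with 8 positive and a median of 0.25 (0.03 without Old replicate 14). Sqle, the epoxidase that commits squalene to sterols, had the widest spread of the 26. Its level was 9.51, 19.6 and 35.0 scaled TPM (lowest, median, highest) in Young and 8.58, 21.3 and 128.8 in Old. The highest mouse, Old replicate 14, had 15.0 times the level of the lowest, Old replicate 16, and the ratio of highest to lowest was 4.69 without the former. Its log2 difference was 0.41 ± 0.39 (limma adjusted p = 0.558), and 0.10 ± 0.29 without Old replicate 14. Its residual SD lay at the 98.6th percentile of all genes tested, beside 96.3 for Dhcr7, the reductase that completes cholesterol, and 95.9 for Mvd.

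Sc5d, a desaturase of the late sterol steps, was at 106.1, 122.8 and 130.9 scaled TPM in Young and 119.8, 148.7 and 227.3 in Old. The level in 9 of 10 Old mice was above the Young median, 7 of the 8 Young mice lay between 121.5 and 130.9, and the ranges overlapped. Sc5d differed by 0.31 ± 0.098 on the log2 scale (limma adjusted p = 0.0755), which missed the threshold. Without Old replicate 14 the difference was smaller, 0.22 ± 0.065, and passed it (adjusted p = 0.0444). Within AllPrep it was 0.28 and within RNeasy without that mouse 0.16, with limma adjusted p-values of 0.197 and 0.464.

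A few sterol enzymes pointed the other way. Hsd17b7, a ketoreductase in the removal of sterol methyl groups, was at 37.8, 41.3 and 53.4 scaled TPM in Young and 24.2, 31.4 and 55.3 in Old. The level in 8 of 10 Old mice was below the Young median, while Old replicate 6 was the highest of all mice. Its log2 difference was -0.31 ± 0.12 (limma adjusted p = 0.140). It was -0.35 ± 0.12 without Old replicate 14 (adjusted p = 0.0832), and -0.39 and called without Old replicate 6 (adjusted p = 0.0417). Tm7sf2, a sterol reductase, was at 75.3, 111.5 and 122.7 scaled TPM in Young and 72.6, 85.9 and 113.2 in Old. The level in 9 of 10 Old mice was below the Young median, the Young mouse at 75.3 being replicate 10. For Tm7sf2 the log2 difference was -0.27 ± 0.11 (limma adjusted p = 0.151), and -0.23 ± 0.11 without Old replicate 14 (adjusted p = 0.195). Without Young replicate 10 it was -0.36 and called (adjusted p = 0.0461). The fits without Old replicate 6 and without Young replicate 10 were picked from fits that left out each mouse in turn. The other 8 genes of the segment were Fdft1, Sqle, Lss, the demethylase Cyp51, the oxidase Msmo1, the dehydrogenase Nsdhl, the isomerase Ebp and Dhcr7, with log2 differences from -0.08 (Ebp) to 0.41 (Sqle). Lss and Cyp51 changed sign without Old replicate 14, from 0.24 to -0.02 and from 0.03 to -0.16, and Ebp from -0.08 to 0.003.

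Among the 4 control genes none was called (lowest limma adjusted p = 0.227; 0 at an unadjusted p under 0.05). Srebf2, which encodes SREBP-2, was at 12.7, 18.7 and 22.1 scaled TPM in Young and 16.0, 21.2 and 28.3 in Old. The ranges overlapped, with 6 of 10 Old mice above the Young median, and the log2 difference was 0.16 ± 0.12 (limma adjusted p = 0.439). Scap, its escort, was at 56.2, 70.3 and 79.2 scaled TPM in Young and 55.2, 70.1 and 78.9 in Old, a log2 difference of -0.03 ± 0.079. Scap levels covered nearly the same range at either age, and Old replicate 14 was at 65.1.

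The INSIG genes stood on opposite sides of 0. Insig1, itself a known SREBP target, was at 75.5, 106.1 and 151.4 scaled TPM in Young and 93.6, 132.5 and 303.1 in Old, and 9 of 10 Old mice lay above the Young median. Its log2 difference was 0.40 ± 0.19 (limma adjusted p = 0.227), and 0.26 ± 0.16 without Old replicate 14. Insig2 was at 98.7, 127.3 and 168.4 scaled TPM in Young and 74.98, 100.02 and 153.3 in Old, and 8 of 10 Old mice lay below the Young median. Insig2 thus differed by -0.25 ± 0.12 (limma adjusted p = 0.231), and -0.23 ± 0.13 without Old replicate 14. In that mouse Insig1 was 2.30 times the median of the other Old mice, and Insig2 was 1.04 times.

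Of the 3 sterol handling genes, Mylip was the gene that fell. Its level was 6.999, 8.93 and 10.7 scaled TPM in Young and 6.26, 7.30 and 7.60 in Old. All 10 Old mice lay below the Young median, and 7 of the 8 Young mice lay above the highest Old mouse; the overlap was due to Young replicate 12, at 6.999. Old replicate 14, at 7.30, was in the middle of the Old range. The log2 difference was -0.32 ± 0.065 (limma adjusted p = 0.0111), and -0.33 ± 0.066 without Old replicate 14 (adjusted p = 0.00770). On the recovered reads limma-voom gave an adjusted p of 0.0110. Within AllPrep the difference was -0.46 ± 0.10 and within RNeasy -0.23 ± 0.081, with limma adjusted p-values of 0.0795 and 0.424 in these smaller sets. The labelled clamp weight ran from 26.6 to 34.8 in Young and from 35.1 to 55.0 in Old, with no overlap. When weight was added as a term, the Mylip difference became -0.13 and lost its call (limma adjusted p = 0.617), and 0.0216% of all genes were called.

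Stard4, a soluble carrier that moves cholesterol between membranes, was at 19.8, 28.8 and 33.1 scaled TPM in Young and 21.9, 31.6 and 58.9 in Old. The ranges overlapped, and without Old replicate 14 the highest Old mouse was at 37.3. Its log2 difference was 0.20 ± 0.16 (limma adjusted p = 0.455). Tmem97, an endoplasmic reticulum protein linked to sterol transport, differed by -0.06 ± 0.13, and by -0.18 ± 0.085 without Old replicate 14 (limma adjusted p = 0.203).

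**Figure D3:**
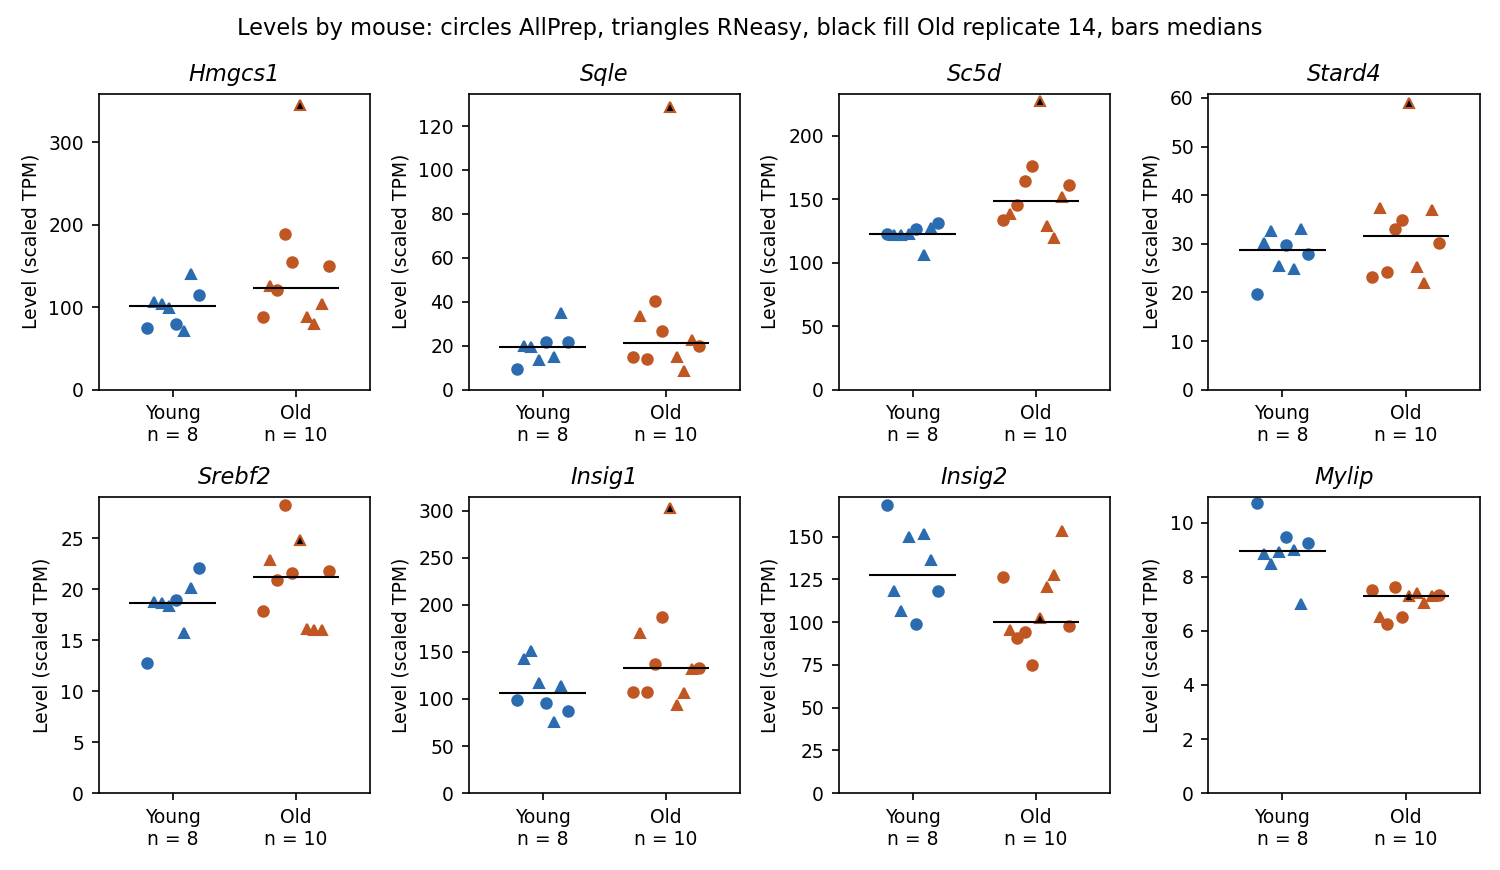
Level (scaled TPM, axis from 0) of 8 genes in each Young (blue, n = 8) and Old (orange, n = 10) mouse, with circles for AllPrep, triangles for RNeasy, a black fill for Old replicate 14 and bars for medians. Old replicate 14 is far above the rest in Hmgcs1, Sqle, Sc5d, Stard4 and Insig1 but inside the Old range in Srebf2, Insig2 and Mylip, where 7 of 8 Young mice exceed all Old mice.

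Extraction kit went with 2 of the 26 genes, where 18.3% of all genes tested were called for kit. Ebp, the isomerase, was at 185.0, 219.3 and 223.1 scaled TPM (lowest, median, highest) in AllPrep and 104.0, 169.0 and 182.5 in RNeasy livers. The kits did not overlap, and the log2 difference, RNeasy minus AllPrep, was -0.42 ± 0.088 (limma adjusted p = 0.00236). Ggps1 went the other way, at 2.43, 2.72 and 3.34 scaled TPM in AllPrep and 3.06, 3.65 and 4.59 in RNeasy, a log2 difference of 0.34 ± 0.074 (limma adjusted p = 0.00347), with overlap. The age difference of a gene did not pass a test of unlike size between the kits in any of the 26 (limma interaction, 0 called and 0 at an unadjusted p under 0.05, against 0 called and 4.22% of all genes; lowest unadjusted p = 0.0871, for Mylip).

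Most of the enzymes varied together from mouse to mouse. Each of the other 25 genes was correlated with Hmgcs1 over the 18 mice after the mean of each age was removed, with two-sided permutation p-values from 100000 permutations within age. In 18 of 25 genes the unadjusted p was under 0.05, with r positive in all 18, against 22.9% of 13894 genes. After adjustment over all 13894 genes, 4 of the 25 were called (Sqle, Nsdhl, Fdps and Fdft1, adjusted p = 0.0463 each) against 0.0432% of all genes; the smallest p these permutations can give, 1e-05, limits this count. Without Old replicate 14 there were 18 at an unadjusted p under 0.05 (12.2% of all genes), 17 with positive and 1 with negative r, and 0 after adjustment, as over all genes. Tmem97 (r = 0.43) was then no longer among them, and Insig2 (r = -0.57) was.

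The mevalonate enzyme Mvd had the highest r of the 25 (r = 0.91, rho = 0.86, permutation p = 3e-05 for each), followed by Fdps (r = 0.91, rho = 0.80), Nsdhl (r = 0.90, rho = 0.89), Sc5d (r = 0.90, rho = 0.86), Sqle (r = 0.90, rho = 0.80) and Fdft1 (r = 0.90, rho = 0.83). The mice farthest from the median of Hmgcs1 were Old replicates 14 and 16. Without these 2 mice the r of the same 6 genes was 0.79, 0.79, 0.84, 0.75, 0.75 and 0.80. Srebf2 followed Hmgcs1 with r = 0.79 and rho = 0.85 (permutation p = 0.00016 and 3e-05), and r was 0.83 without these 2 mice. With only Old replicate 14 left out, r for Srebf2 was 0.85 and 0% of the other genes tested had a higher r. Insig1 had r = 0.79 and rho = 0.73 (permutation p = 0.00082 and 0.00106), and r = 0.58 without the 2 mice. Within kits the r of Hmgcs1 with Srebf2 was 0.83 in AllPrep and 0.86 in RNeasy, and that with Sqle was 0.76 and 0.95.

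Several genes did not follow Hmgcs1. Insig2 had r = -0.44 (permutation p = 0.0868) and rho = -0.51 (p = 0.0368), with r = -0.52 without the 2 farthest mice. Scap (r = 0.23), Hsd17b7 (r = 0.26), Tm7sf2 (r = -0.13), Ggps1 (r = -0.23), Mylip (r = -0.24) and Ebp (r = -0.40) had unadjusted permutation p-values from 0.151 to 0.630. For Tmem97 the relation rested on the 2 farthest mice: r was 0.70 (rho = 0.36) and 0.26 without them, and it was -0.86 within AllPrep and 0.92 within RNeasy. The genes share libraries and depth, so these correlations are not independent of each other.

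**Figure D4:**
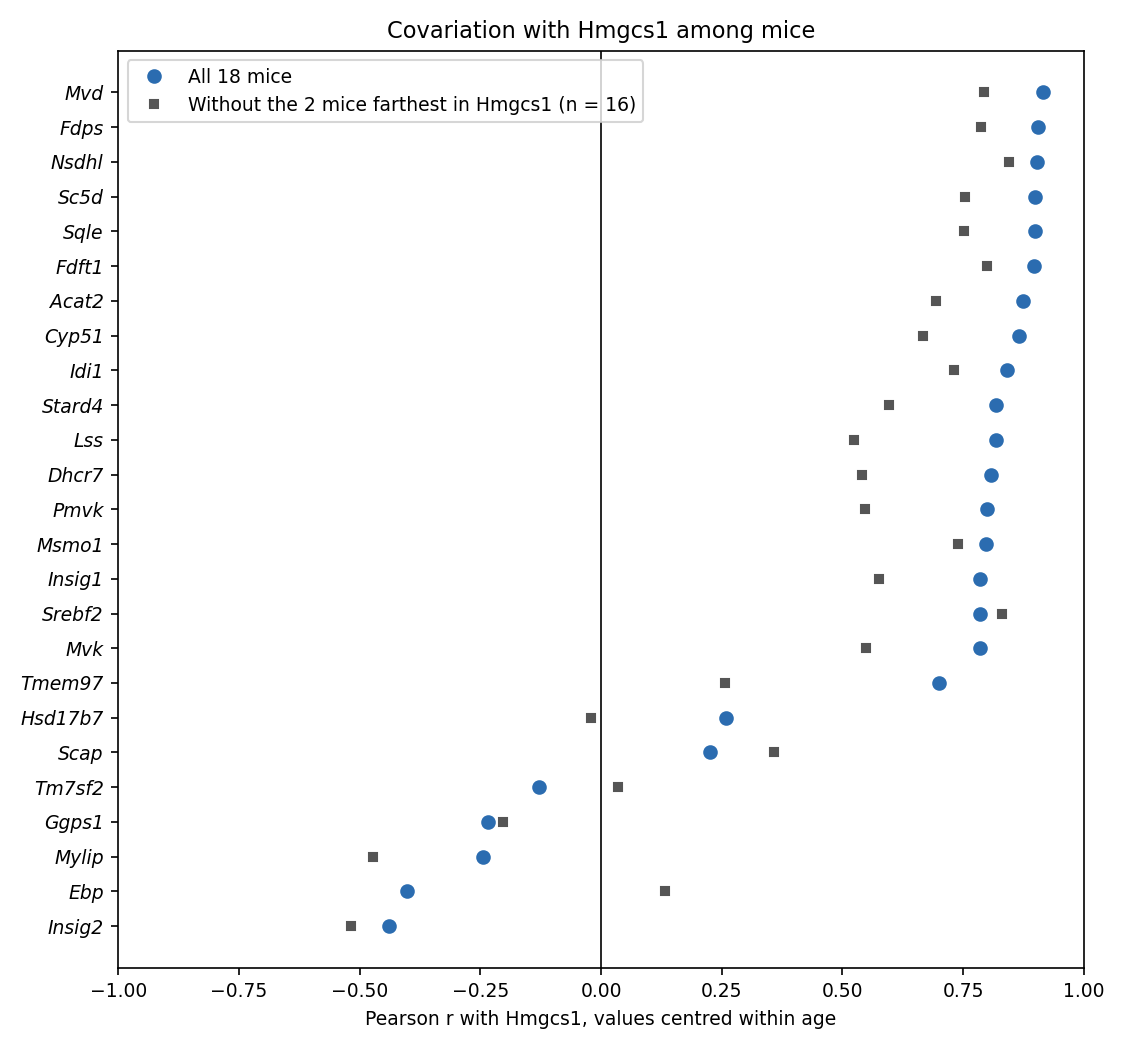
Pearson r of each of 25 genes with Hmgcs1 on log2(scaled TPM + 0.5) centred within age, over 18 mice (circles) and over 16 mice without Old replicates 14 and 16 (squares). The 18 genes at the top have r of at least 0.70 with all mice, Tmem97 drops to 0.26 without the 2 mice, and Insig2 is lowest at -0.44.

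The labels give each mouse metabolic measurements taken at the clamp, and 7 of them were set against the 26 genes with age and kit as terms. None of the 26 passed an adjusted p of 0.05 for any of the 7 (limma), and of all genes tested 0.072% did for clamp weight and 0% for the other 6. The measure that went with most genes at an unadjusted p was liver citrate synthase flux, a tracer estimate of citrate formation whose unit is not stated in the labels. Its mean was 3.67 ± 0.323 in the 8 Young and 2.79 ± 0.400 in the 10 Old mice (SD), and Old replicate 14, at 3.38, had the highest value of the Old mice. At an unadjusted p under 0.05 there were 16 of 26 genes, with positive slopes in all 16, against 3.20% of all genes tested, and the lowest limma adjusted p was 0.925. Cyp51 rose by 0.52 ± 0.15 log2 units per SD of the flux (unadjusted limma p = 0.00330; adjusted p = 0.925), Mvd by 0.61 ± 0.19 and Hsd17b7 by 0.26 ± 0.083.

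Without Old replicate 14, 6 of 26 genes had an unadjusted p under 0.05, 5 of them with positive slopes, against 1.30% of all genes. The slope of Cyp51 was then 0.32 ± 0.11 (limma adjusted p = 1.00), that of Sqle fell from 0.72 ± 0.29 to 0.39 ± 0.24, and that of Hsd17b7 was 0.24 ± 0.090. In Young mice alone there were 9 of 26 (5.20% of all genes), in Old mice alone 5 (2.93%), and in Old mice without replicate 14 there was 1 (4.91%), Hsd17b7, with a slope of 0.39 ± 0.096 (unadjusted limma p = 0.00263; adjusted p = 0.986). The difference between the slopes of the 2 ages had an unadjusted limma p under 0.05 in 0 of 26 genes (3.64% of all genes). Without Old replicate 14 it was again 0 of 26 (7.86%). The unlike counts by age thus do not show that the slopes differ between the ages. Since most of the 26 vary together, these counts are not independent observations.

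**Figure D5:**
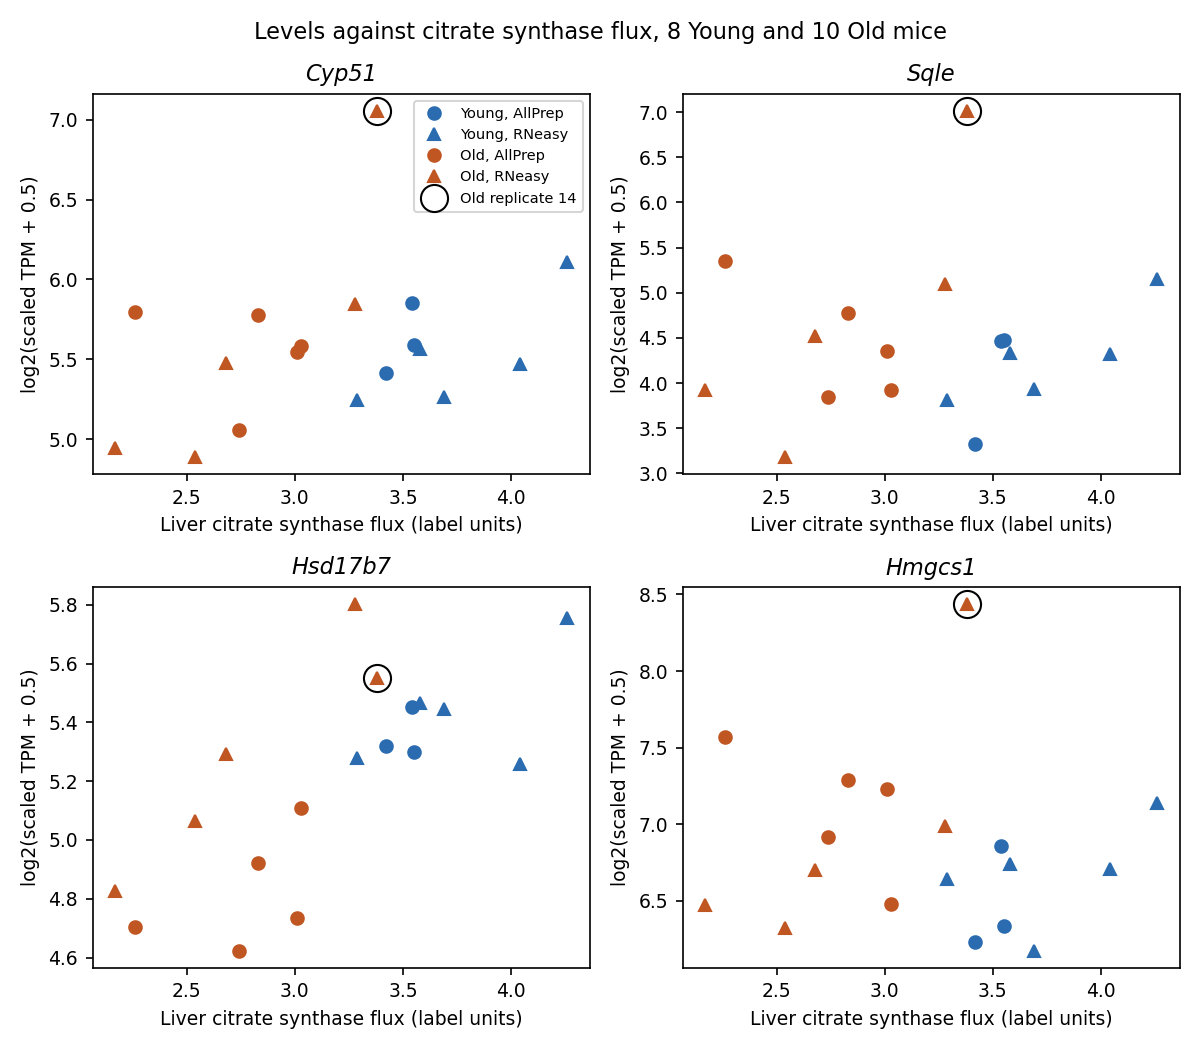
Level as log2(scaled TPM + 0.5) of Cyp51, Sqle, Hsd17b7 and Hmgcs1 against liver citrate synthase flux (unit not stated in the labels) in Young (blue) and Old (orange) mice, with circles for AllPrep, triangles for RNeasy and a ring around Old replicate 14. The ringed mouse, at a flux of 3.38, is the highest in Cyp51, Sqle and Hmgcs1, while in Hsd17b7 it lies among the others.

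Insulin measured at the clamp (53.9 ± 6.88 in 8 Young and 55.5 ± 10.1 in 10 Old mice, SD; unit not stated in the labels) gave 0 of 26 genes at an unadjusted p under 0.05 with 1 slope for both ages (1.72% of all genes). The slopes had unlike signs in the 2 ages. In Young mice 22 of 26 slopes were positive and 9 had an unadjusted p under 0.05, all positive (4.35% of all genes). In Old mice 22 of 26 were negative and 5 had an unadjusted p under 0.05, all negative (1.12% of all genes). In Old mice without replicate 14 the count was 2, both negative (2.11% of all genes). Old replicate 16, the lowest mouse in 10 of the 26 genes, had the highest clamp insulin of all mice, 75.28. Old replicate 14 was at 45.72. Slopes without Old replicate 16 were not fitted. Among Young mice, replicate 12 had the highest clamp insulin, 65.08. It also had the highest citrate synthase flux (4.26) and suppression of glucose production (92.0) of the Young mice. Slopes without Young replicate 12 were not fitted, so the Young counts for these measures share that mouse. A test of the difference between the slopes was added after the slopes in each age were seen. It gave 13 of 26 at an unadjusted p under 0.05 against 1.52% of all genes, and 11 against 2.07% without Old replicate 14. After adjustment over all genes 0 passed. These counts are not independent observations, because most of the 26 vary together. For Msmo1, the sterol oxidase, the slope was 0.49 ± 0.12 log2 units per SD of insulin in Young and -0.41 ± 0.13 in Old, or -0.35 ± 0.13 without Old replicate 14. The difference was -0.89 ± 0.23 (unadjusted limma p = 0.00119, adjusted p = 1.00). For Hmgcs1 the slopes were 0.26 ± 0.11 and -0.28 ± 0.15, a difference of -0.53 ± 0.25 (unadjusted limma p = 0.0470, adjusted p = 1.00). Without Old replicate 14 the Old slope of Hmgcs1 was -0.13 ± 0.092 and the difference -0.39 ± 0.19 (unadjusted limma p = 0.0515).

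For the other 5 measures, the count of genes at an unadjusted p under 0.05 was 0 for suppression of glucose production (9.12% of all genes), 1 for glucose infusion rate (3.22%), 0 for liver glycogen (2.97%), 1 for pyruvate dehydrogenase flux (1.66%) and 2 for clamp weight (15.9%). The gene at pyruvate dehydrogenase flux was Insig2, with a slope of -0.21 ± 0.072 per SD (unadjusted limma p = 0.0101; adjusted p = 1.00). The genes at clamp weight were Hsd17b7 and Mylip, with slopes of -0.30 ± 0.10 and -0.13 ± 0.057 per SD and limma adjusted p-values of 0.178 and 0.277.

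Within 1 age some of these counts were higher. In Young mice alone 8 of 26 genes had an unadjusted p under 0.05 for suppression of glucose production, all with positive slopes (2.51% of all genes), 8 for clamp weight, 7 of them positive (19.5%), 2 for glucose infusion rate (4.14%), 0 for glycogen (3.81%) and 0 for pyruvate dehydrogenase flux (2.47%). In Old mice alone there were 5 for pyruvate dehydrogenase flux, 4 of them positive (1.35%), 1 for clamp weight (3.84%), and 0 for suppression of glucose production (3.22%), glucose infusion rate (10.3%) and glycogen (1.38%). Without Old replicate 14 the count for pyruvate dehydrogenase flux in Old mice was 3 (2.78%). The other counts in Old mice were then higher: 4 for clamp weight (7.61%), 3 for glucose infusion rate (13.1%), 1 for suppression of glucose production (3.85%) and 1 for glycogen (3.07%). None passed after adjustment over all genes. The difference between the slopes of the 2 ages had an unadjusted p under 0.05 in 0 of 26 genes for suppression of glucose production (0.741% of all genes), 1 for clamp weight (4.69%) and 7 for pyruvate dehydrogenase flux (1.28%), or 0 for the latter without Old replicate 14 (2.03%). None of these differences passed after adjustment.

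Around the pathway, 5 lists of related genes were read from the same limma fit for age. Of 12 genes that process SREBP or degrade sterol-regulated proteins, 1 was higher and 0 lower, with a median log2 difference of -0.01. The gene that rose was Erlin1, which encodes a sterol-binding scaffold of the endoplasmic reticulum: 22.8 ± 2.25 scaled TPM in 8 Young and 27.8 ± 3.24 in 10 Old mice (SD), log2 difference 0.27 ± 0.073, limma adjusted p = 0.0448. The ubiquitin ligases Trim21 and Syvn1 followed, with log2 differences of 0.26 and -0.39 and limma adjusted p-values of 0.0781 and 0.0915.

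Of 11 tested genes of LXR and sterol efflux, 0 were higher and 1 lower, with a median of 0.02. The gene that fell was Cyp7b1, an oxysterol hydroxylase of the acidic bile acid pathway. It was at 363.8 ± 122.4 scaled TPM in 8 Young mice and 131.6 ± 72.9 in 10 Old mice (SD), and the ranges of 222.2 to 611.9 and 19.1 to 282.2 overlapped. On the log2 scale the difference was -1.68 ± 0.38 (limma adjusted p = 0.0199), and -1.34 without Old replicate 14 (adjusted p = 0.00588). Cyp27a1, which starts that pathway, and the transporter Abcg1 differed by -0.45 and 0.30, with limma adjusted p-values of 0.133 and 0.168.

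Of 11 tested genes of cholesterol ester and intracellular transport 0 were called, with a median of -0.03. The acyltransferase Soat1 and the lysosomal carrier Npc2 differed by 0.38 and 0.28, and the ester hydrolase Nceh1 by -0.29, with limma adjusted p-values of 0.0690, 0.119 and 0.167. Of 12 genes of isoprenoid branches 0 were higher and 1 lower, with a median of -0.04. The gene that fell was Rabggta, a subunit of the enzyme that prenylates Rab proteins, at 17.3 ± 1.45 scaled TPM in 8 Young mice and 14.5 ± 1.36 in 10 Old mice (SD), log2 difference -0.23 ± 0.062, limma adjusted p = 0.0368. Dolk, the dolichol kinase, and Nus1, a subunit of the dolichol synthase, differed by -0.19 and -0.12 and did not pass.

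Of 11 tested genes of fatty acid synthesis under SREBP-1, 0 were called, while 10 differences were positive and the median was 0.51 (0.34 without Old replicate 14). The acyltransferase Gpam differed by 0.36 ± 0.11 (limma adjusted p = 0.0583), and by 0.27 without Old replicate 14, where it was called (adjusted p = 0.0202). The malic enzyme Me1 was the gene with a negative difference, -0.41 ± 0.12 (limma adjusted p = 0.0605), and Mid1ip1, an activator of acetyl-CoA carboxylase, differed by 0.53 ± 0.19 (adjusted p = 0.109). Over the 5 lists 3 of 57 genes were called with all 18 mice (5.26%, against 4.91% of all genes tested) and 5 of 57 without Old replicate 14 (8.77%, against 7.02%), shares near those of all genes. Among these 5 was Abcg5, a sterol exporter named here after its values were seen, which differed by -0.26 without that mouse (limma adjusted p = 0.0429) and by -0.03 with it (adjusted p = 0.947).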

How the data were processed

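Bulk liver RNA from 8 Young and 10 Old mice was sequenced. The deposited table holds TPM, which the authors made from reads, gene length and library total: each library sums to 1000000. Per the submitters' processing notes the tools include STAR 2.7.9a, featureCounts and Subread, and the builds GRCm39 and mm10. The annotation and strand setting were not given in the sources used here; values of genes that have near-identical copies or overlap another gene are therefore uncertain. Whole reads were recovered for 18946 of 18946 genes (within 1e-05 of a whole number).

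Libraries were scaled by trimmed means (30% of log ratios and 5% of levels trimmed). Age and kit were terms of a limma 3.58.1 fit (R 4.3.3) of log2(scaled TPM + 0.5), with trended variances and Benjamini-Hochberg adjustment over 13895 genes at 0.5 TPM or more in at least 8 libraries. Fold changes on this scale understate changes of low genes. In simulated data 26%, 70%, 94% and 98% of genes changed 1.25-, 1.5-, 2- and 4-fold were called for Old against Young (13895 genes, 7 false calls). The changed genes were drawn at random from all but the lowest genes and varied independently, so these shares do not carry over to the 26 genes. Residual SD lay at the 98.6th percentile of all genes for Sqle, the 93.4th for Hmgcs1 and the 22.4th for Ggps1. Traits were divided by their SD over 18 mice. Correlations were to be adjusted over the 25 genes compared; adjustment over all genes was used in its place. Python 3.11.15, numpy 2.4.6, scipy 1.17.1, pandas 2.3.3 and matplotlib 3.10.9 were used.

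Named genes were those of control and anchor roles, the 6 of the 26 with the smallest p for age, those called by kit, and the 3 smallest p-values of each other list. Members and lists were chosen with earlier results of these data known. Filtered out were Ch25h, Gramd1b, Pnpla3 and Krt7. Alternatives covered kit, scaling, filter, pseudocount, weights, voom, body weight and left-out libraries. Promoters came from RefSeq (GRCm38.p6). The mouse was the replicate in every test.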

Additional observations from a re-analysis of the deposited data

Results flagged for a closer look

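In each age group of 8 or 10 mice, the highest and lowest level of each of the 26 genes was compared with its nearest neighbour on the log2 scale, relative to the range of the group. Of 52 groups tested, 8 had a mouse set apart; chance gives about 1 in 20 groups, and groups of genes that vary together are not independent. In 6 of the 8 that mouse was Old replicate 14. It was highest among Old in Acat2 (92.3 scaled TPM, next mouse 46.1), Pmvk (23.2, next 14.6), Mvd (11.6, next 4.18), Lss (36.4, next 9.49) and Cyp51 (132.5, next 57.1). It was lowest among Old in Ebp (104.0 scaled TPM, next 158.6), against the direction of most other enzymes. In Tm7sf2 that mouse was also lowest (72.6 scaled TPM), but it was not set apart by this rule. Among Young mice, replicate 12 was highest in Hsd17b7 (53.4 scaled TPM, next 43.7), and replicate 11 was lowest in Sc5d (106.1, next 121.5).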

How the results depend on the processing

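The count of the 26 genes called for age, 1 with all mice (Mylip), was 0 in AllPrep livers alone, in RNeasy livers alone (with and without Old replicate 14, the latter added after seeing the data) and with body weight as a term, 2 with library weights, and 1 to 2 when each mouse was left out in turn (2 without Young replicate 10 and Old replicates 6, 14 and 16). The count for kit, 2, was 4 with no scaling. The trait slopes, 0, gave 1 with no kit term (Hsd17b7 with clamp weight). Genes of the other lists called for age, 3, were 1 in AllPrep alone, 0 in RNeasy alone with or without Old replicate 14, 1 with no filter, 9 with library weights, 0 with body weight, and 1 to 5 with a mouse left out (1 without Young replicates 2 and 4 and Old replicates 8 and 9; 5 without Old replicates 14 and 16).

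Of 806 single-gene age differences under an alternative, 747 kept their direction and side of the threshold, 5 passed it, 4 lost it and 50 changed sign; none of the latter was called in either fit. In RNeasy livers without Old replicate 14 the log2 differences that changed sign were Hmgcs1 -0.066, Mvk -0.11, Pmvk -0.24, Mvd -0.27, Idi1 -0.14, Fdps -0.19, Ggps1 0.0403, Fdft1 -0.018, Sqle -0.14, Lss -0.22, Cyp51 -0.25, Msmo1 -0.092, Nsdhl -0.16, Ebp 0.021, Dhcr7 -0.20 and Srebf2 -0.061, and with that mouse Pmvk -0.019. With library weights they were Pmvk -0.0301, Mvd -0.019, Ggps1 0.0504, Sqle -0.0301, Lss -0.072, Cyp51 -0.21 and Ebp 0.0085. In AllPrep livers they were Ggps1 0.0011, Cyp51 -0.077 and Scap 0.032. With no scaling they were Ggps1 0.047 and Scap 0.029, with a filter of 1 TPM Ggps1 0.00596, and with body weight Ggps1 0.045, Hsd17b7 0.13, Srebf2 -0.047, Insig2 0.014 and Tmem97 0.015. With each mouse left out in turn the genes whose sign changed ran as follows: Ggps1 from -0.038 to 0.037, Lss from -0.018 to 0.36, Cyp51 from -0.16 to 0.13, Ebp from -0.11 to 0.0035, Scap from -0.094 to 0.0102 and Tmem97 from -0.18 to 0.013. The cause of these changes was not tested.

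No paired analysis was possible because no replicate number occurs in both groups. Depth did not limit these genes: the lowest count was 116 reads. The number of mice limits the precision.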
